A study of Homo sapiens with 11 samples.

Results

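CXCL1, CXCL2, CXCL3, IL8, IL6, CCL2, CCL20, NFKBIA, TNFAIP3 and BIRC3 are target genes of the transcription factor NF-kB, and their RNA levels were read in HCC78 cells. The 10 genes were chosen by name among the 57773 genes of the expression table, and each name had 1 entry. HCC78 is a lung adenocarcinoma line that carries an SLC34A2-ROS1 fusion and an S34F mutation in 1 of its own alleles of U2AF1, the splicing factor that reads the AG at the 3' end of introns. All groups share these lesions. Total RNA of 9 libraries was sequenced. WT dox+ and S34F dox+ (2 libraries each) were stable subclones that carried a lentiviral, doxycycline-inducible, FLAG- and HA-tagged wild-type or S34F U2AF1 and were given doxycycline. WT dox- (2 libraries) and S34F dox- (1 library, replicate 2) were the same lines without it. Parental cells (2 libraries) had no construct, and the sample labels give them as dox minus while a supplementary sheet of the study marks them as dox plus. The labels put S34F at 62% and 65% of U2AF1 mRNA in S34F dox+, 12% and 14% in WT dox+, 28% in S34F dox-, 33% in both WT dox- libraries and 32% in both parental libraries. No library came from cells with doxycycline and a construct without U2AF1, so doxycycline itself and the induced protein cannot be told apart.

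NF-kB proteins wait in the cytoplasm, held by inhibitors such as IkBα, the product of NFKBIA. Signals from tumor necrosis factor, interleukin-1 or bacterial products activate the IkB kinase complex, the inhibitor is degraded, and NF-kB dimers enter the nucleus and bind kappaB sites in DNA. Among the first genes to respond are chemokines, which call in white blood cells, and genes whose products shut the pathway off again. CXCL1, CXCL2, CXCL3 and IL8 (now named CXCL8) attract neutrophils, CCL2 attracts monocytes, CCL20 attracts lymphocytes and dendritic cells, and IL6 is an inflammatory cytokine. NFKBIA and TNFAIP3, which encodes the ubiquitin-editing enzyme A20, are negative feedback genes. BIRC3 encodes the ubiquitin ligase cIAP2, which protects cells from tumor necrosis factor-induced death. Airway and lung epithelial cells are known to produce many of these chemokines.

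NF-kB acts through kappaB sites, so the sequences near the genes' starts were searched for them. RefSeq promoters (GRCh38.p14, 250 bases before to 50 bases after the start) matched 9 of the 10 genes, all but CCL2. Both strands were searched for the standard 10-letter kappaB consensus and for the 9-letter core GGAATTTCC, which lies inside the consensus matches of 4 genes. The consensus was found in 8 of the 9 promoters and in 11.3% of all 35116 promoters of this length. The core is a string that 5 of the 9 share, those of CXCL1, CXCL2, CXCL3, IL8 and NFKBIA. Its count among them is thus a description and not a test of enrichment. It was found in 0.461% of all promoters. One stretch per gene is printed 5' to 3' on the gene's strand, with 12 bases on either side, and capitals mark the bases that match the consensus, the core or both.
CXCL1 (chr4:73869302-73869336, plus strand): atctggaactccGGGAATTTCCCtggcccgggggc
CXCL2 (chr4:74099251-74099285, minus strand): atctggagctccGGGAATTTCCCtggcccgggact
CXCL3 (chr4:74038746-74038780, minus strand): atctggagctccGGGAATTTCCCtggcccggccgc
IL8 (chr4:73740466-73740498, plus strand): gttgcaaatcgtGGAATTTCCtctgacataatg
IL6 (chr7:22727115-22727148, plus strand): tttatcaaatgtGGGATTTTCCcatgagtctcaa
CCL20 (chr2:227813751-227813784, plus strand): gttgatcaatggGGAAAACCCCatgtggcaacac
NFKBIA (chr14:35404809-35404842, minus strand): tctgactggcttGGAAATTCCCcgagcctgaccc
TNFAIP3 (chr6:137867180-137867225, plus strand): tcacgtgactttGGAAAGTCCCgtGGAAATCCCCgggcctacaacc
BIRC3 (chr11:102317273-102317370, plus strand): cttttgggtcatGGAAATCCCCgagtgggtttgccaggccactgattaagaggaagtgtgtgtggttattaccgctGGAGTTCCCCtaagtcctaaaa

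CXCL1, CXCL2 and CXCL3 held the same 11 capital bases, and the consensus matched there on both strands. Their whole promoters were alike as well, with 83.5% of aligned bases identical between CXCL1 and CXCL2, 87.0% between CXCL1 and CXCL3 and 83.6% between CXCL2 and CXCL3. CXCL1 and IL8, which lies in the same chemokine cluster on chromosome 4, shared 50.2%. The first capital base lay 79 bases before the start in CXCL1, CXCL3 and CCL20, 78 in CXCL2, 91 in IL8, 81 in NFKBIA and 73 in IL6. TNFAIP3 had matches that began 67 and 55 bases before its start, and BIRC3 had matches 199 and 135 bases before. The IL8 promoter held the core and no match to the consensus. These matches describe the letters of the reference and were not measured as binding in these cells.

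RNA levels were given as FPKM, the number of sequenced fragments scaled to the length of the transcript and to the size of the library, so levels of different genes can be set side by side. Of the 10 genes, 6 were at 1 FPKM or above in all 9 libraries. CCL20 was under 1 FPKM in all 9, IL6 in 8, CXCL3 in 2 and IL8 in 1. NFKBIA had the highest mean level, 62.3 FPKM with a range of 51.4 to 81.4. TNFAIP3 followed at 50.7 (25.0 to 87.4), then CXCL1 at 31.3 (21.3 to 48.3) and BIRC3 at 26.4 (18.1 to 34.7). The order among these 4 did not hold in every library. NFKBIA was above TNFAIP3 in 7 of 9 libraries, TNFAIP3 was above CXCL1 in 8, and CXCL1 was above BIRC3 in 7. Next came CXCL2 at 14.1 FPKM, below BIRC3 in all 9 libraries, and CCL2 at 5.02 FPKM, below CXCL2 in all 9. IL8 (2.51 FPKM) was below CCL2 in 7 libraries and above CXCL3 (1.92 FPKM) in 6. IL6 (0.480 FPKM) was below CXCL3 in all 9 libraries, and it was above CCL20 (0.172 FPKM) in 5. The feedback genes were among those at the highest levels, and the 3 CXCL chemokines with like promoters differed widely in level, from 31.3 FPKM for CXCL1 to 1.92 FPKM for CXCL3.

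**Figure D1:**
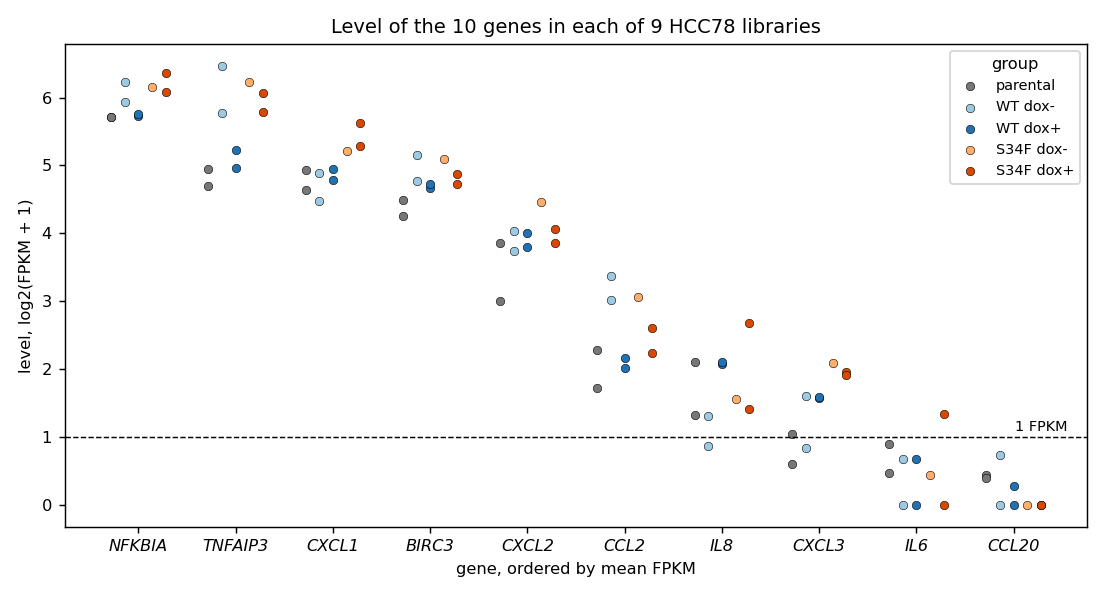
Level of each of the 10 genes as log2(FPKM + 1) on the vertical axis, with 1 point per library colored by group and genes ordered by mean FPKM. NFKBIA, TNFAIP3, CXCL1 and BIRC3 lie at the top with overlapping ranges, and CCL20 lies under the dashed line at 1 FPKM in all 9 libraries.

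Several facts of the libraries bear on all comparisons. S34F dox+ replicate 2 stood apart, with 20896 genes at 1 FPKM or above against 13661 to 17716 in the other 8 libraries. Values without it are therefore given beside the comparisons that use it, for those of the 10 genes that were tested. For most other genes of the pathway they are not given. By label, the 4 libraries with doxycycline had 15736 to 20896 such genes and the 5 without had 13661 to 14688. The number of genes detected thus went with doxycycline, and its part in the doxycycline comparisons was not tested. U2AF1 was at 278 and 299 FPKM in WT dox+ and at 164 and 223 FPKM in S34F dox+, so the induced lines differed in the amount of U2AF1 as well as its allele. It was at 103 to 115 FPKM in the 5 libraries without induction. HCC78 markers were present throughout, since the 11 epithelial and lung adenocarcinoma genes summed to 8531 to 11570 FPKM, with keratins, EPCAM, NKX2-1, SLC34A2 and ROS1 detected in all libraries. Of 7 leukocyte and macrophage markers, 3 had a mean of at least 1 FPKM (CD68, CSF1R and PTPRC). CD163 and ITGAM had means of 0.973 and 0.752 FPKM and reached up to 2.01 and 2.72 FPKM. CD14 and LYZ stayed at or under 0.55 and 0.65 FPKM. T and B cell markers summed to at most 3.17 FPKM, endothelial markers to at most 2.99 and fibroblast markers to at most 13.4. In bulk RNA, fewer cells with a transcript and less of it per cell cannot be told apart.

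Differences were tested with limma on log2(FPKM + 1). The 15179 genes whose mean reached 1 FPKM entered 1 model of all 9 libraries, and p-values were adjusted by the Benjamini-Hochberg method over all of them. IL6 and CCL20 fell under this minimum, so 8 of the 10 genes were tested. Nothing in the sources used here says whether replicates were separate cultures, and p-values then measure only the spread between these libraries. The comparisons share libraries: S34F dox+ was compared with WT dox+, WT dox+ also with WT dox-, and WT dox- also with the parental cells. With 2 libraries in a group, groups can lie apart without overlap by chance. The share of all genes that do so was not counted.

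The first question was whether the genes differed between cells induced to make S34F and cells induced to make wild-type U2AF1. These were separate stable subclones, so line and allele cannot be told apart in this comparison. TNFAIP3, NFKBIA and CXCL1 were higher in both S34F dox+ libraries than in both WT dox+ libraries, but none of the 8 genes passed the test at an adjusted p under 0.05. TNFAIP3 was at 54.3 and 65.7 FPKM in S34F dox+ and at 30.1 and 36.4 FPKM in WT dox+. The ratio of the group means was 1.81. The log2 fold change was 0.83 ± 0.24 (SE, limma adjusted p = 0.553), and it was 0.70 without S34F dox+ replicate 2.

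NFKBIA was at 81.4 and 66.6 FPKM in S34F dox+ against 52.2 and 53.0 FPKM in WT dox+, with no overlap. Its log2 fold change was 0.48 ± 0.14 (SE, limma adjusted p = 0.568), and 0.62 without S34F dox+ replicate 2. CXCL1 was at 48.3 and 37.8 FPKM in S34F dox+ against 29.97 and 26.5 FPKM in WT dox+. These values too did not overlap, and the log2 fold change was 0.58 ± 0.19 (SE, limma adjusted p = 0.619), or 0.76 without S34F dox+ replicate 2.

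The other CXCL chemokines differed among themselves. CXCL2 was at 13.5 and 15.8 FPKM in S34F dox+ and at 15.1 and 12.9 FPKM in WT dox+, so the groups overlapped (log2 fold change 0.06 ± 0.27, SE, limma adjusted p = 0.987; -0.04 without S34F dox+ replicate 2). CXCL3 was at 2.87 and 2.77 FPKM against 1.99 and 2.00 FPKM, without overlap. Its log2 fold change was 0.35 ± 0.34 (SE, limma adjusted p = 0.888), and 0.37 without S34F dox+ replicate 2. IL8, the neutrophil chemokine CXCL8, was at 5.38 and 1.65 FPKM in the S34F dox+ libraries, on either side of the 3.22 and 3.28 FPKM of WT dox+. Its log2 fold change was -0.05 ± 0.46 (SE, limma adjusted p = 1.00), and without S34F dox+ replicate 2 it was 0.59.

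CCL2, the monocyte attractant, was at 5.06 and 3.70 FPKM in S34F dox+ against 3.47 and 3.05 FPKM in WT dox+ (log2 fold change 0.33 ± 0.26, SE, limma adjusted p = 0.856), and without S34F dox+ replicate 1 or 2 the change was 0.14 or 0.51. BIRC3 was at 28.4 and 25.5 FPKM against 24.3 and 25.4 FPKM, nearly touching, with a log2 fold change of 0.11 ± 0.16 (SE, limma adjusted p = 0.935), or 0.19 without S34F dox+ replicate 2. IL6 was listed at 0 and 1.53 FPKM in S34F dox+ and at 0.59 and 0 FPKM in WT dox+. The value of 1.53, the highest of IL6 in any library, came from S34F dox+ replicate 2, the library with the most genes detected. CCL20 was listed at 0 in both S34F dox+ libraries, against 0 and 0.21 FPKM in WT dox+.

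Of the 8 genes tested, 0 were called by limma at an adjusted p under 0.05 in this comparison, in which 0.0527% of all genes tested were called. At an unadjusted p under 0.05, 3 of the 8 (CXCL1, NFKBIA and TNFAIP3) were higher in S34F dox+, where 4.01% of all genes tested were higher. The median log2 fold change of the 8 was 0.34, against 0.03 over all genes tested. The leukocyte and macrophage markers moved the same way, with a sum of 31.1 and 40.3 FPKM in S34F dox+ against 22.6 and 24.5 FPKM in WT dox+. Most of that sum was CD68, a lysosomal protein, at 34.4 and 23.8 FPKM against 19.3 and 17.4 FPKM. The part of these markers in the values of the 8 genes was not tested.

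**Figure D2:**
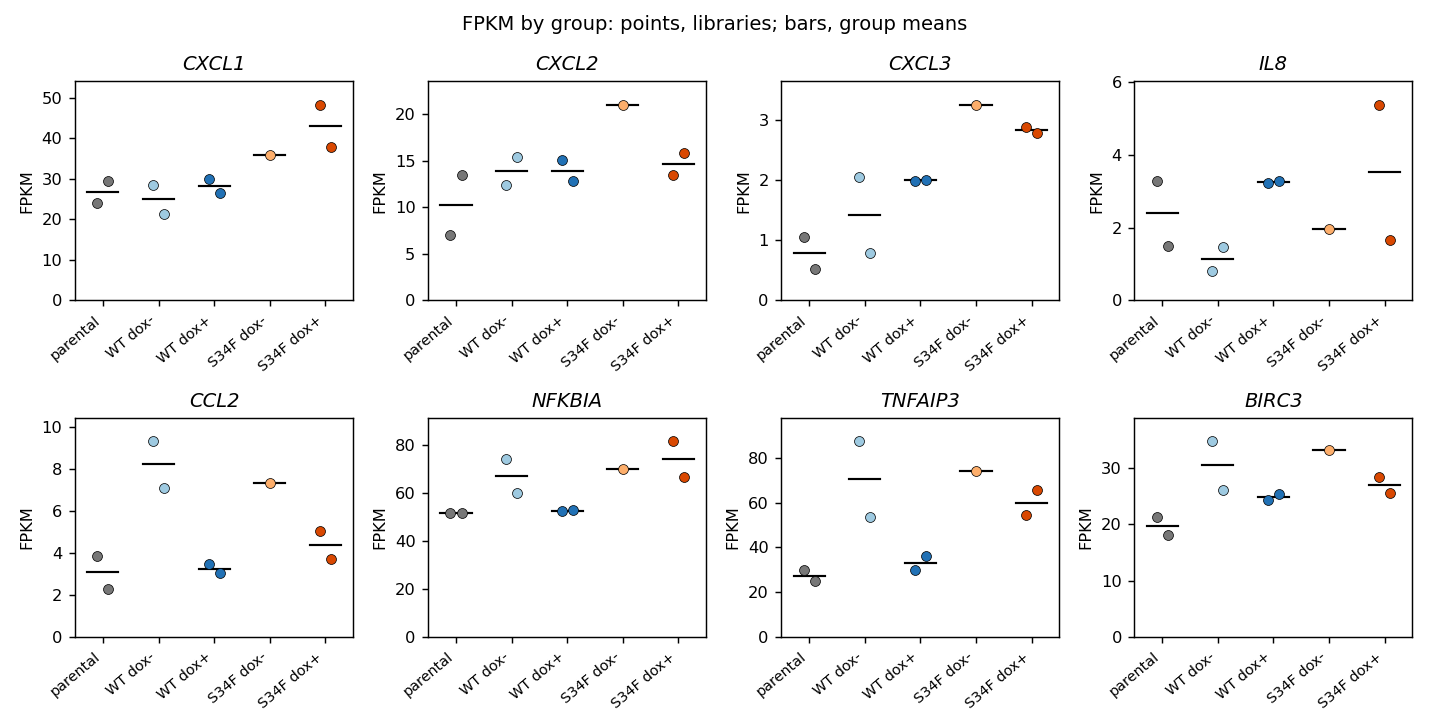
FPKM of the 8 tested genes in each group, with points for libraries and bars for group means, each vertical axis starting at 0. For TNFAIP3 and CCL2 the parental and WT dox+ libraries lie below both WT dox- libraries and the S34F dox- library.

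The second comparison set the wild-type line with doxycycline against the same line without it. CCL2 and TNFAIP3 were lower in both WT dox+ libraries, and neither passed the test. CCL2 was at 3.47 and 3.05 FPKM in WT dox+ and at 9.31 and 7.11 FPKM in WT dox-. The ratio of means was 0.397, and the log2 fold change was -1.10 ± 0.26 (SE, limma adjusted p = 0.164).

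TNFAIP3 was at 30.1 and 36.4 FPKM in WT dox+ against 87.4 and 53.4 FPKM in WT dox-. Here the groups did not overlap although the WT dox- libraries differed from each other by more than the gap between groups. The log2 fold change was -1.02 ± 0.24 (SE, limma adjusted p = 0.163), and it was -0.67 without WT dox- replicate 1. NFKBIA, the other feedback gene, was at 52.2 and 53.0 FPKM in WT dox+ against 73.9 and 60.0 FPKM (log2 fold change -0.34 ± 0.14, SE, limma adjusted p = 0.341), and the change was -0.19 without WT dox- replicate 1.

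BIRC3 was at 24.3 and 25.4 FPKM in WT dox+ and at 34.7 and 26.2 FPKM in WT dox-, with a log2 fold change of -0.27 ± 0.16 (SE, limma adjusted p = 0.485), or -0.07 without WT dox- replicate 1 and -0.47 without replicate 2. IL8 lay the other way from these genes, at 3.22 and 3.28 FPKM with doxycycline against 0.82 and 1.48 FPKM without. Its log2 fold change was 1.00 ± 0.46 (SE, limma adjusted p = 0.373). CXCL1 was at 28.5 and 21.3 FPKM in WT dox-, CXCL2 at 12.4 and 15.4 FPKM and CXCL3 at 2.04 and 0.79 FPKM. Each of these ranges met or crossed the WT dox+ range given above, and the log2 fold changes were 0.19, 0.01 and 0.36.

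Of the 8 genes, limma called 0 at an adjusted p under 0.05 and 0.0132% of all genes tested. At an unadjusted p under 0.05, 3 of the 8 (CCL2, NFKBIA and TNFAIP3) were lower in WT dox+, beside 5.59% of all genes tested. The median of the 8 log2 fold changes was -0.13, against 0.05 over all genes.

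The S34F line with and without doxycycline rests on a single S34F dox- library, which the fit takes to vary like the other groups. In that library CCL2 was at 7.32 FPKM, above both S34F dox+ libraries, and TNFAIP3 was at 74.1 FPKM, also above both. NFKBIA was at 70.0 FPKM and CXCL1 at 36.0 FPKM, NFKBIA between its S34F dox+ values and CXCL1 just below them. CXCL2 at 21.0 FPKM and CXCL3 at 3.25 FPKM had their highest values of all 9 libraries there. The ratio of this library to the WT dox- mean was 1.445 for CXCL1, 1.515 for CXCL2, 2.297 for CXCL3 and 1.696 for IL8. It was 1.052 for TNFAIP3, 1.046 for NFKBIA, 1.091 for BIRC3 and 0.892 for CCL2.

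BIRC3 was at 33.2 FPKM and IL8 at 1.95 FPKM in the S34F dox- library. IL6 was listed at 0.36 FPKM and CCL20 at 0. Averaged over both lines, the doxycycline response was lower CCL2 and TNFAIP3, still short of the threshold. The mean log2 response was -0.87 ± 0.20 for CCL2 (SE, limma adjusted p = 0.0569) and -0.66 ± 0.19 for TNFAIP3 (SE, limma adjusted p = 0.0881).

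The mean response was -0.28 ± 0.13 for BIRC3, 0.74 ± 0.36 for IL8 and -0.24 ± 0.21 for CXCL2 on the log2 scale (SE). It was -0.13 ± 0.11 for NFKBIA, 0.21 ± 0.15 for CXCL1 and 0.10 ± 0.27 for CXCL3. The limma adjusted p of these 6 genes ranged from 0.225 for BIRC3 to 0.840 for CXCL3. Without S34F dox+ replicate 2 the mean response was -0.78 for CCL2, -0.73 for TNFAIP3, -0.24 for BIRC3, 1.06 for IL8, -0.30 for CXCL2, -0.06 for NFKBIA, 0.30 for CXCL1 and 0.11 for CXCL3. Of the 8 genes, 0 were called by limma, beside 3.88% of all genes tested. At an unadjusted p under 0.05, 2 of the 8 (CCL2 and TNFAIP3) were lower, beside 9.22% of all genes tested. The median was -0.19, against 0.08 over all genes.

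Whether the lines responded differently was tested as the S34F-line response minus the wild-type-line response. The estimate was largest for TNFAIP3, at 0.72 ± 0.37 (SE, limma adjusted p = 1.00). TNFAIP3 in the S34F line was at 74.1 FPKM without and 54.3 and 65.7 FPKM with doxycycline, a smaller distance than in the wild-type line. Without WT dox- replicate 1 the estimate was 0.37. The estimate was 0.46 ± 0.40 for CCL2, 0.41 ± 0.22 for NFKBIA, 0.06 ± 0.30 for CXCL1 and -0.02 ± 0.26 for BIRC3 on the log2 scale (SE). For CXCL2, CXCL3 and IL8 it was -0.51 ± 0.43, -0.51 ± 0.54 and -0.52 ± 0.73. Without S34F dox+ replicate 2 the estimates were 0.58 for TNFAIP3, 0.65 for CCL2, 0.55 for NFKBIA, 0.23 for CXCL1 and 0.05 for BIRC3, and -0.62, -0.50 and 0.11 for CXCL2, CXCL3 and IL8. Of the 8 genes, limma called 0 at an adjusted p under 0.05 (0.0264% of all genes tested) and 0 had an unadjusted p under 0.05 (3.42% of all genes).

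The last comparison set the uninduced wild-type line, a stable subclone, against the parental cells. TNFAIP3, CCL2 and BIRC3 were higher in both WT dox- libraries than in both parental libraries, and again none passed the adjusted test. TNFAIP3 was at 87.4 and 53.4 FPKM in WT dox- and at 29.9 and 25.0 FPKM in the parental cells. The ratio of means was 2.56, and the log2 fold change was 1.29 ± 0.24 (SE, limma adjusted p = 0.131).

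CCL2 was at 9.31 and 7.11 FPKM against 3.84 and 2.31 FPKM, a ratio of means of 2.67, with a log2 fold change of 1.19 ± 0.26 (SE, limma adjusted p = 0.151). BIRC3 was at 34.7 and 26.2 FPKM against 21.4 and 18.1 FPKM (log2 fold change 0.59 ± 0.16, SE, limma adjusted p = 0.243). NFKBIA was at 73.9 and 60.0 FPKM against 51.4 and 51.7 FPKM (log2 fold change 0.36 ± 0.14, SE, limma adjusted p = 0.361). None of these 4 genes had overlapping groups, and for each the S34F dox- library lay above both parental libraries too. The share of all genes with either pattern was not counted.

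The chemokines CXCL1, CXCL2, CXCL3 and IL8 were at 23.9 and 29.4, 7.02 and 13.4, 1.06 and 0.52, and 3.29 and 1.49 FPKM in the parental cells. Each of these ranges except that of IL8 crossed its WT dox- range, and the log2 fold changes were -0.10 ± 0.19, 0.46 ± 0.27, 0.40 ± 0.34 and -0.62 ± 0.46 (SE). Single libraries moved these values, as CXCL2 was 0.04 without parental replicate 1, CXCL3 0.02 without WT dox- replicate 1 and IL8 -0.23 without parental replicate 1. The parental cells were also the only group in which CCL20 was above 0 in both libraries, at 0.35 and 0.32 FPKM. IL6 was at 0.86 and 0.38 FPKM there and at 0 and 0.60 FPKM in WT dox-, in which CCL20 was at 0 and 0.67 FPKM.

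Of the 8 genes, limma called 0 at an adjusted p under 0.05, beside 0.0988% of all genes tested. At an unadjusted p under 0.05, 4 of the 8 (BIRC3, CCL2, NFKBIA and TNFAIP3) were higher in WT dox-, beside 5.79% of all genes tested. Their median log2 fold change was 0.43, against 0.00 over all genes. Of the lung markers, SLC34A2 was lower in WT dox- (58.1 and 70.5 FPKM) than in the parental cells (115 and 166 FPKM), and so were ROS1 (14.2 and 15.9 against 26.1 and 37.8 FPKM) and NAPSA (2.79 and 4.02 against 7.39 and 9.97 FPKM). SFTPB was lower as well, at 0.40 and 0.45 FPKM against 0.89 and 2.05 FPKM. KRT7 was higher in WT dox-, at 4164 and 4196 FPKM against 3371 and 2873 FPKM. EPCAM, CDH1, NKX2-1, KRT8, KRT18 and KRT19 had overlapping groups. Leukocyte and macrophage markers summed to 17.8 and 18.1 FPKM in WT dox- and to 31.7 and 31.9 FPKM in the parental cells. These sums lay the other way from the 4 genes. Most of each sum was CD68, at 13.5 and 16.1 FPKM against 26.2 and 27.2 FPKM. CSF1R, LYZ and CD163 were lower in WT dox- as well, and CD14 and ITGAM had overlapping groups. PTPRC lay the same way as the 4 genes, at 1.13 and 0.88 FPKM against 0.32 and 0 FPKM. The part of these markers in the values of the 8 genes was not tested. Transduction, subcloning and any uninduced expression of the construct cannot be told apart in this comparison.

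**Figure D3:**
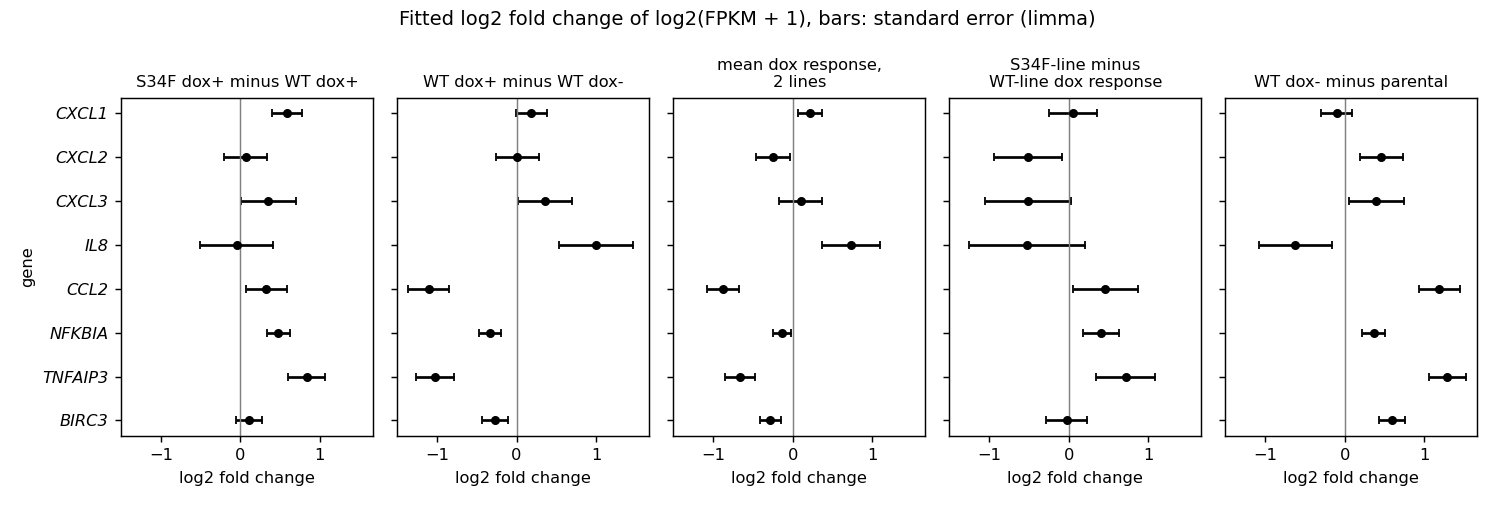
Fitted log2 fold change of the 8 tested genes (points) with its standard error (bars) in the 5 comparisons, 1 panel each, on a shared horizontal axis. TNFAIP3 and CCL2 lie to the right of 0 in WT dox- minus parental (1.29 and 1.19) and to the left of 0 in WT dox+ minus WT dox- (-1.02 and -1.10), comparisons that share the WT dox- libraries.

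Across the 9 libraries the genes did not vary as one. As a description over libraries that fall into 5 groups, Pearson's r of log2(FPKM + 1) was 0.898 between TNFAIP3 and BIRC3, 0.861 between CCL2 and BIRC3, 0.854 between NFKBIA and TNFAIP3 and 0.837 between CCL2 and TNFAIP3. It was 0.721 between CXCL1 and CXCL3. IL8 had r of 0.368 to CXCL1, 0.271 to CXCL3, -0.048 to NFKBIA, -0.178 to BIRC3, -0.250 to CXCL2, -0.383 to CCL2 and -0.399 to TNFAIP3.

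Among 9271 other protein-coding genes whose mean level reached 5 FPKM, the 2 with the highest r over the 9 libraries were found for each tested gene. High r is common when so many genes are searched over so few libraries. For BIRC3 the gene most alike was NFKB1, which encodes the NF-kB subunit p50 and its precursor (r = 0.955), followed by USP12, a ubiquitin protease (r = 0.951). For CCL2 they were ELP3, a subunit of the Elongator complex (r = 0.978), and FADD, the death receptor adaptor (r = 0.958). For NFKBIA they were JOSD1, a deubiquitinase (r = 0.977), and SHCBP1 (r = 0.944). For TNFAIP3 they were MPHOSPH6 (r = 0.940) and MAP7D1 (r = 0.933).

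For CXCL1 the genes most alike were SMARCAD1, a chromatin remodeler (r = 0.960), and IL4R, the interleukin-4 receptor (r = 0.937). For CXCL2 they were RABGGTB (r = 0.926), a subunit of the enzyme that prenylates Rab proteins, and ZNF595 (r = 0.923). For CXCL3 they were BTBD10 (r = 0.936) and FAM83B (r = 0.934), and for IL8 they were ZNF37A (r = 0.963) and PNPLA8, a phospholipase (r = 0.941).

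The rest of the pathway was read from 9 lists with 117 genes, of which 89 had a mean of at least 1 FPKM and were tested. In S34F dox+ against WT dox+, limma called 1 of the 89 higher and 0 lower at an adjusted p under 0.05, beside 0.0527% of all genes tested. That gene was IL32, a cytokine induced by NF-kB, at 108 and 106 FPKM in S34F dox+ against 44.3 and 48.6 FPKM in WT dox+. It rose by a log2 fold change of 1.19 ± 0.13 (SE, limma adjusted p = 0.0431). IL32 was at 107 FPKM in the S34F dox- library as well, at 45.3 and 49.5 FPKM in WT dox- and at 28.7 and 35.3 FPKM in the parental cells, so both states of the S34F line lay above all other libraries. Over 15 alternatives the IL32 log2 fold change stayed between 1.07 and 1.25, but the call was lost under 14 of them, with adjusted p-values up to 0.267, and without S34F dox+ replicate 2 the adjusted p was 0.247.

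In WT dox+ against WT dox-, 0 of the 89 were called higher and 1 lower, beside 0.0132% of all genes tested. G0S2, an inhibitor of fat breakdown that is also listed among NF-kB targets, was at 45.7 and 41.1 FPKM with doxycycline and at 111 and 105 FPKM without. It fell by 1.30 on the log2 scale (SE 0.11, limma adjusted p = 0.0465), with values from -1.38 to -1.23 over 14 alternatives. The call was lost under 12 of them, with adjusted p-values up to 0.231.

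In the mean doxycycline response, 2 of the 89 were called higher and 4 lower, beside 2.79% higher and 1.09% lower of all genes tested. G0S2 led the lower genes, at 64.8 and 64.0 FPKM in S34F dox+ against 157 FPKM in S34F dox-. The parental cells, at 74.9 and 82.4 FPKM, lay between the libraries with doxycycline and the transduced lines without it. In the mean response G0S2 fell by 1.29 on the log2 scale (SE 0.09, limma adjusted p = 0.00183). This call held under all 13 alternatives, with an adjusted p of at most 0.0341. LTB, which encodes lymphotoxin beta, a ligand that activates the noncanonical pathway, was at 34.2 FPKM in S34F dox-, 13.2 and 18.4 FPKM in WT dox-, and 9.76 to 11.2 FPKM in the 4 libraries with doxycycline, while the parental cells were lower still at 5.93 and 7.68 FPKM. It fell by 1.10 on the log2 scale (SE 0.15, limma adjusted p = 0.0193).

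IER3, an early response gene, was at 51.8 FPKM in S34F dox- and 31.9 and 49.3 FPKM in WT dox-, against 16.5 to 27.5 FPKM in the libraries with doxycycline and 23.0 and 41.3 FPKM in the parental cells (log2 change -1.10, limma adjusted p = 0.0482). IRAK1, a kinase of interleukin-1 and Toll-like receptor signaling, was at 119 FPKM in S34F dox- and 155 and 113 FPKM in WT dox-, against 77.8 to 89.95 FPKM with doxycycline and 95.3 and 91.1 FPKM in the parental cells (log2 change -0.58, limma adjusted p = 0.0466). The higher genes were EFNA1, an ephrin ligand induced by tumor necrosis factor, and IL6R, the receptor of IL6. EFNA1 was at 9.55 to 10.6 FPKM in the transduced lines without doxycycline, 12.3 to 25.3 FPKM in them with it and 19.1 and 20.4 FPKM in the parental cells (log2 change 0.67, limma adjusted p = 0.0481). IL6R was at 6.30 to 7.87 FPKM in the transduced lines without doxycycline, 10.2 to 11.7 FPKM in them with it and 9.23 and 9.80 FPKM in the parental cells (log2 change 0.64, limma adjusted p = 0.0427). Unlike G0S2, the calls of IER3, EFNA1 and IL6R were each lost under 10 of 13 alternatives, that of IRAK1 under 9 and that of LTB under 6, S34F dox+ replicate 2 left out among them.

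In the difference of the responses and in WT dox- against parental, 0 of the 89 were called by limma at an adjusted p under 0.05. At an unadjusted p under 0.05, 2 were higher and 1 lower in the former, beside 3.42% of all genes in either direction, and 12 were higher and 9 lower in the latter, beside 5.79% and 6.54% of all genes. By role, the 5 NF-kB subunits were all tested and 0 were called in any comparison. The largest log2 fold change among them was 0.38 for RELB in S34F dox+ against WT dox+ and 0.48 for REL in the mean response, with limma adjusted p of 0.787 and 0.131. NFKB1 was at 34.7 to 54.4 FPKM and RELA at 47.4 to 65.3 FPKM over the 9 libraries. Of the 10 kinases and their regulators, 0 were called, and the largest values were 0.33 for IKBKG and -0.37 for CHUK in the same comparisons.

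Of the other inhibitors and feedback genes 15 were tested and 0 called, with the largest values in TRAF1 (0.75, limma adjusted p = 0.728) and NFKBIZ (0.73, limma adjusted p = 0.0631). TRAF1, an adaptor of tumor necrosis factor receptors, was at 6.10 and 6.13 FPKM in S34F dox+ against 2.57 and 4.02 FPKM in WT dox+. NFKBIZ, an IkB-like regulator of IL6 among others, was at 41.0 to 53.9 FPKM in the 4 libraries with doxycycline and 22.9 to 32.7 FPKM in WT dox- and S34F dox-, with 32.5 and 49.0 FPKM in the parental cells. Among 21 receptors and adaptors IRAK1 was the gene called, and TRAF2 had the largest value in S34F dox+ against WT dox+ (0.38, limma adjusted p = 0.683).

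The classical ligands of the pathway were near the floor. TNF was at most 0.52 FPKM and IL1A at most 0.79 FPKM in any library. IL1B was at 0.92 to 2.91 FPKM in the libraries with doxycycline, highest in S34F dox+ replicate 2, and at 0.18 to 0.58 FPKM in the others. Only 4 of the 10 ligands were tested. TNFSF10, the death ligand TRAIL, had the largest value in S34F dox+ against WT dox+ (-0.26, limma adjusted p = 0.864). That value was 0.03 without S34F dox+ replicate 2. TNFSF13B, which encodes BAFF, had the largest value in the mean response (1.44, limma adjusted p = 0.134). It was at 5.36 FPKM in S34F dox+ replicate 2, 0.63 FPKM in S34F dox+ replicate 1 and 0.15 FPKM in S34F dox-. In WT dox+ it was at 2.38 and 2.51 FPKM, in WT dox- at 0 and 0.73 FPKM and in the parental cells at 0.69 and 0.82 FPKM. Both WT dox+ values of TNFSF13B thus lay above both WT dox- values. The size of its mean response varied with the S34F dox+ library that was kept. It was 0.95 with replicate 1 alone in that group and 1.93 with replicate 2 alone.

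Among 16 other chemokine and cytokine targets, 6 were tested. CXCL6, a relative of CXCL1 that also binds CXCR1 and CXCR2, was at 3.17 and 3.19 FPKM in S34F dox+ and 1.84 FPKM in S34F dox-. It was at 1.53 and 1.85 FPKM in WT dox+, 1.16 and 1.27 FPKM in WT dox- and 1.55 and 3.15 FPKM in the parental cells. Its mean doxycycline response over both lines was 0.42 (limma adjusted p = 0.320). CXCL5, CXCL10 and CCL5 were under 1 FPKM in all libraries but one, in which CXCL5 reached 1.17 FPKM. The chemokine receptors were at low levels too, CXCR1 at most at 0.84 FPKM, CXCR2 at 0.38, CCR2 at 0.50 and CCR6 at 0.52. IL6ST, the signal transducer that IL6 shares with other cytokines, was at 40.7 to 78.5 FPKM. Of the 8 genes listed as regulators of mRNA decay, all were tested and 0 called. The largest values were 0.35 for ZFP36L1 in S34F dox+ against WT dox+ and 0.55 for RC3H1 in the mean response.

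Because U2AF1 acts on splicing, the deposited splicing comparison of S34F and wild-type cells was read for the same genes. It gives PSI, meant as the fraction of transcripts that include the variable sequence, once per condition and without replicates, so no test was made. Which isoform the value stands for was not checked per event. Retained intron events ran from 0.05 in BIRC3 to 0.94 in NFKBIA in the condition listed first. The files do not name their conditions column by column, and the first was taken as S34F from the reads per gene, whose ratio (first over second) had a rank correlation of 0.575 with the FPKM ratio of S34F dox+ over WT dox+ across 8743 genes. With at least 10 reads over both conditions, 23 events were listed in the 10 genes, and 5 of them had PSI values at least 0.1 apart. Of 87763 such events in all genes, 33% were that far apart. CCL2 and CCL20 had no events, and IL6 had events with at most 6 and 1 reads in the respective conditions. The same read counts recur across events of a gene, such as 1591 and 2189 for skipped exons of BIRC3. They may thus cover more of the gene than the event itself.

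The events are given with coordinates of GRCh37/hg19, the build named in the processing notes. In TNFAIP3 (chromosome 6, plus strand), a retained intron event at chr6:138196972-138197133 stood at a PSI of 0.69 with S34F and 0.81 with the wild type. It was listed with 951 and 773 reads. An alternative 5' splice site event with 3 isoforms at chr6:138188631-138192350 had an isoform at 0.30 against 0.14, from 276 and 128 reads. The other 3 TNFAIP3 events lay within 0.03 of each other.

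In NFKBIA (chromosome 14, minus strand), the skipped exon event at chr14:35871869-35872356 stood at a PSI of 0.92 with S34F and 0.82 with the wild type, from 1468 and 1541 reads. A NAGNAG event, in which acceptor sites lie side by side, at chr14:35871866-35872356 was at 0.52 and 0.62 from 507 and 554 reads. Another at chr14:35873643-35873716 was at 0.35 and 0.64, from only 17 and 21 reads. The other 6 NFKBIA events were at most 0.05 apart.

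BIRC3 had 4 events with up to 1591 and 2189 reads, and none was more than 0.03 apart. The 3 CXCL chemokines each had a NAGNAG event, at 0.04 and 0.08 in CXCL1, 0.04 and 0.08 in CXCL2 and 0.10 and 0.14 in CXCL3, the last from 28 and 20 reads. CXCL1 also had an alternative 3' splice site at 0.97 and 0.91. The skipped exon of IL8 was at 0.90 and 0.89 from 28 and 52 reads.

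**Figure D4:**
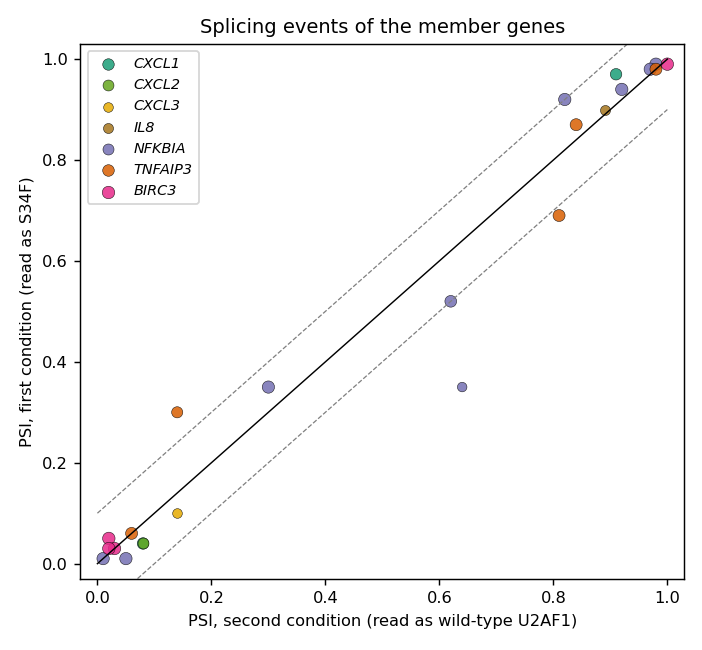
PSI of the 23 splicing events of 7 genes, with the condition taken as wild-type on the horizontal and the condition taken as S34F on the vertical axis, points larger with more reads. The solid line marks equal PSI and the dashed lines a difference of 0.1. Events of NFKBIA and TNFAIP3 reach or pass the dashed lines, and the NFKBIA point at 0.64 and 0.35 is listed with 21 and 17 reads.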

How the data were processed

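Total RNA of 9 HCC78 libraries was sequenced in paired-end reads, which the authors trimmed, aligned with STAR 2.3.0 and summarized per gene with RSEM 1.2.29. FPKM and TPM values per gene and library are used as deposited by the authors, without counts, so the depth per library is unknown and counting error has no interval here. PSI, a fraction between inclusion and exclusion, and the read counts listed with each event were deposited by the authors from MISO, 1 value per condition. The Bayes factor and PSI difference columns of those files hold the authors' own comparison and were not used. The submitters' notes name GRCh37/hg19 as the build.

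Log2(FPKM + 1) of the 15179 genes whose mean reached 1 FPKM was fitted with limma 3.58.1 (limma-trend, R 4.3.3, two-sided) in 5 groups without covariates. Fold changes are on the log2(FPKM + 1) scale, which understates the change of low genes. The fit was tried on simulated data, in which the planted changes were larger than any estimated here for the 10 genes. Recovery of smaller changes was not tried. Tables and plots were made with pandas 2.3.3 and matplotlib 3.10.9. Promoters came from RefSeq (GRCh38.p14). Named were the 10 genes, pathway genes called in any comparison, the gene of largest change per list in S34F dox+ against WT dox+ and in the mean response, and the 2 genes most alike per tested gene. Genes and lists were chosen with earlier results of these data known. Alternatives covered the pseudocount (0.1), no minimum FPKM, median-ratio scaling, TPM, a replicate block, the 4 dox+ libraries alone, each library left out and the reads per splicing event. The iCLIP samples were not analysed here.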

Additional observations from a re-analysis of the deposited data

How the results depend on the processing

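Over 40 results (8 genes in 5 comparisons), 530 of 552 values under an alternative kept their direction and stayed short of an adjusted p under 0.05. With a replicate block, limma called 1 of the 8 genes in the mean doxycycline response, CCL2 (-0.96, adjusted p = 0.0443, against 0.0569 without the block; range over all alternatives 0.0443 to 0.166). The labels say nothing of what a replicate number shares, and same-numbered libraries did not deviate together (correlation of replicate differences -0.076 to 0.037), so the numbers were not taken to pair the libraries; the block changed no other call of the 8 genes. Direction turned with TPM for CXCL2 (-0.046) and BIRC3 (-0.0019) in S34F dox+ against WT dox+ and for CXCL1 in the difference of the responses (-0.092), and with the block for CXCL1 in the difference (-0.024). TPM moved the median of all genes by -0.10 and -0.14 in those comparisons. Leaving out each library gave, in S34F dox+ against WT dox+, -0.043 to 0.17 for CXCL2, -0.68 to 0.59 for IL8, -0.55 to 0.028 for TNFSF10 and -0.16 to 0.014 for IL6R. It gave -0.13 to 0.15 for CXCL2, -0.018 to 0.39 for CXCL1 and -0.021 to 0.74 for CXCL3 in WT dox+ against WT dox-, and -0.088 to 0.29 for CXCL3 in the mean response. In the difference it gave -0.15 to 0.26 for CXCL1, -1.16 to 0.11 for IL8 and -0.22 to 0.17 for BIRC3, and in WT dox- against parental -0.31 to 0.10 for CXCL1. The cause was not tested. Where a library left out leaves 1 in its group, that one is assumed to vary like the other groups. Without the S34F dox- library the mean response and the difference could not be fitted. Counts over all genes moved more: 8 genes were called in S34F dox+ against WT dox+ (0 to 29 under the alternatives), 2 in WT dox+ against WT dox- (0 to 10), 589 in the mean response (10 to 691), 4 in the difference (2 to 33) and 15 in WT dox- against parental (3 to 23). Of 23 splicing events 5 were at least 0.1 apart, the same number with 10 or more reads required per condition, and 4 of 21 with 50 or more over both.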

Other observations

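Among the other genes of the pathway, splicing events listed with 200 or more reads in all were searched. Those with PSI values at least 0.3 apart were singled out after their values were seen. There were 8 such events of 463 with that many reads, in 6 genes, beside 3.5% of all such events in any gene. Each has 1 value per condition and no test, and its read counts may cover more of the gene than the event. A skipped exon of IL6R had a PSI of 0.79 in the condition taken as S34F and 0.46 in that taken as wild-type, from 893 and 1149 reads. A skipped exon of IL17RA, a receptor of interleukin-17, was at 0.60 and 0.28, and a skipped exon of RNF31, a subunit of the linear ubiquitin ligase, was at 0.75 and 0.45. A NAGNAG event of TNIP1, a partner of A20, was at 0.38 and 0.69, and an alternative 3' splice site of BCL2L1, which encodes Bcl-xL, was at 0.63 and 0.31. Of 3 events in IKBKB, the kinase that marks IkBα for degradation, the skipped exons were at 0.66 and 0.31 and at 0.23 and 0.55, and the alternative 3' splice site was at 0.47 and 0.16.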
